A study of Arabidopsis thaliana with 8 samples.

Results

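SCL3 (SCARECROW-LIKE 3, locus AT1G50420) was read by 1 probe set of the 22746 on the array that were not controls (ATH1.261866_at, given here as array and probe set). The array annotation used here lists no gene for it. The probe set was picked by its identifier, and its assignment to SCL3 came with that choice and was not checked against probe sequences. It was chosen because its signal was already known to be lower after gibberellin on these arrays, so its own values are a description and carry no test. The arrays were Affymetrix ATH1 arrays, on which a group of short probes (a probe set) reads a transcript and is summarised as 1 signal.

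Shoots of ga1-3 seedlings sprayed with 2 µM GA4, a bioactive gibberellin, were compared with shoots of the same mutant sprayed with water, with 4 biological replicates numbered 1 to 4 in each group. Both groups carry the ga1-3 mutation in the Ler background, which blocks gibberellin synthesis. Plants were 8 days old in both groups, grown upright under constant light at 22 °C with 2% sucrose in the agar, and shoots were cut 1 h after the spray. Wild-type and unsprayed plants were not analysed here, so the values describe a gibberellin-deficient shoot with and without added hormone.

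SCL3 belongs to the GRAS family of transcriptional regulators, which also holds the DELLA proteins, the repressors of gibberellin responses. Gibberellin binds the GID1 receptors, the complex captures DELLA proteins, and an F-box protein (SLY1 or its relative SLY2, also called SNEEZY) marks them for breakdown. In Arabidopsis, DELLA proteins promote transcription of SCL3, the SCL3 protein counteracts DELLA action, mainly studied in the root endodermis, and zinc finger proteins of the INDETERMINATE DOMAIN (IDD) family tether both kinds of GRAS protein to the SCL3 promoter. A plant without gibberellin accumulates DELLA proteins, and SCL3 transcript is known to be high there.

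SCL3 was lower in GA4-sprayed than in water-sprayed shoots in 4 of 4 replicate numbers. On the linear MAS5 scale, SCL3 read 155, 132, 122 and 119 units on GA4 replicates 1 to 4, against 416, 523, 432 and 363 units on water replicates 1 to 4. The groups did not overlap, since the highest GA4 array (replicate 1) lay well below the lowest water array (replicate 4). On the log2 scale the signal averaged 7.04 ± 0.17 in GA4 shoots and 8.75 ± 0.22 in water shoots (SD, n = 4 each), a difference of −1.71, or 3.28-fold lower in GA4. Expressed as a share, the geometric mean signal in GA4 shoots, 131 units, was 30.5% of that in water shoots, 430.0 units. In whole shoots, fewer cells that hold a transcript and less transcript per cell cannot be told apart.

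**Figure D1:**
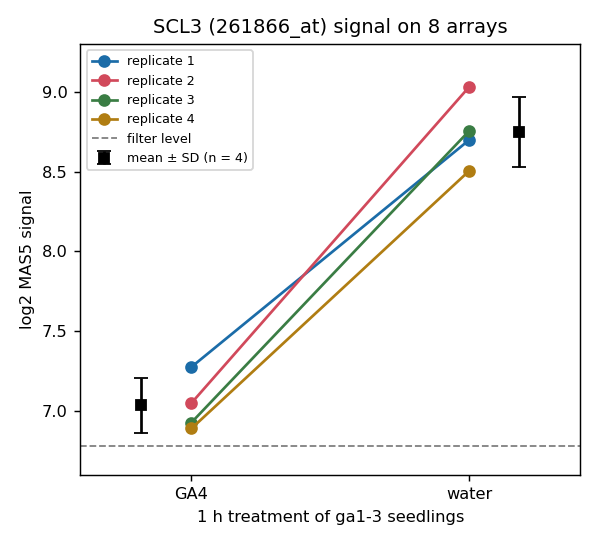
Log2 MAS5 signal of SCL3 (vertical axis) on the 4 GA4 arrays (left) and the 4 water arrays (right), with lines joining arrays of the same replicate number, black squares and bars for the mean ± SD of each group, and a dashed line at the filter level of 6.78. All 4 GA4 arrays, at 6.89 to 7.28, lie below all 4 water arrays, at 8.51 to 9.03.

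The size of the difference varied with the replicate number. SCL3 differed by −1.42, −1.98, −1.83 and −1.62 (GA4 minus water, log2) in replicates 1 to 4, which is 2.68-, 3.95-, 3.55- and 3.06-fold lower in GA4. The largest of these was in replicate 2, which had the highest water signal, and the smallest in replicate 1, which had the highest GA4 signal. Their SD was 0.24, against a median SD of 0.28 for the 4 differences of a tested probe set. Over all 16 possible combinations of a GA4 and a water array, SCL3 was 2.35- to 4.41-fold lower in GA4.

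In both treatments the arrays fell into 2 sets, replicates 1 and 2 on one side and replicates 3 and 4 on the other, which the first principal component of the tested probe sets separated. The 3′ to 5′ signal ratio of the actin control, a sign of RNA or labelling quality, ran from 2.72 to 6.81 in the set of replicates 1 and 2, while in the set of replicates 3 and 4 it ran from 1.5 to 1.76. Within replicates 1 and 2 the ratio was higher on the GA4 array than on the water array of the same number, at 6.81 against 5.07 and at 4.48 against 2.72, while SCL3 was lower on the GA4 array. The part of RNA quality in the SCL3 values was not tested. The ratio of the older GAPDH control probe sets also separated the sets. It ran from 2.13 to 5.43 in replicates 1 and 2 and from 0.958 to 1.14 in replicates 3 and 4. The remaining controls overlapped between the sets. The ubiquitin ratio spanned 1.30 to 2.80 in the first set and 1.32 to 1.59 in the second, and that of the older actin probe sets spanned 3.67 to 13.6 in the first and 3.03 to 5.63 in the second. SCL3 differed by −1.70 (3.26-fold lower in GA4) on replicates 1 and 2 and by −1.72 (3.30-fold lower) on replicates 3 and 4 (GA4 minus water, log2). These are means of 2 differences each, −1.42 and −1.98 in the first set and −1.83 and −1.62 in the second. The near equality holds on the deposited scale only. After quantile normalization the differences were −1.78 and −2.08 in the first set and −1.69 and −1.54 in the second. The level of SCL3 was slightly higher on replicates 1 and 2 in both groups, by 0.25 in GA4 and 0.23 in water on the log2 scale. A typical tested probe set differed more between the sets, with a median absolute difference of 0.39 over both treatments together, and 33.3% of tested probe sets differed by less than the 0.24 of SCL3.

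**Figure D2:**
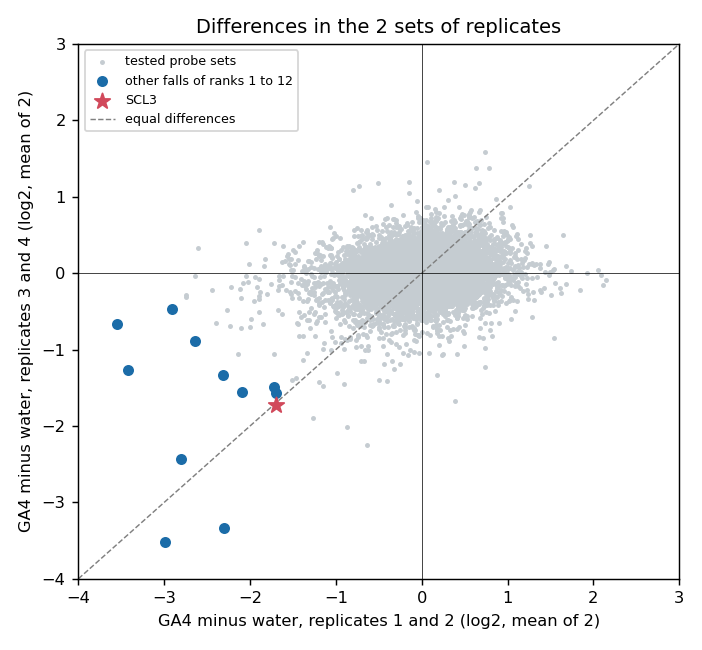
Mean GA4 minus water difference (log2) on replicates 3 and 4 against that on replicates 1 and 2, for the 13648 tested probe sets (grey), the other probe sets of ranks 1 to 12 by mean fall (blue) and SCL3 (star), with a dashed line where both differences are equal. On the deposited scale shown here SCL3, at −1.70 and −1.72, lies almost on that line, while several of the other large falls lie away from it. Its 2 values are means of −1.42 and −1.98 and of −1.83 and −1.62.

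The GA4 signals of SCL3 lay close to the dim end of what was tested. They were 0.49, 0.27, 0.15 and 0.11 log2 units above the filter level of 6.78 (110 units) on GA4 replicates 1 to 4, and the water signals were 1.72 to 2.25 above it. The lower quartile of all signals, which tracks the dim end of each array, was 77.4, 61.8, 42.8 and 45.6 units on GA4 replicates 1 to 4, against 39.6 to 52.2 units on the water arrays. The GA4 arrays with the highest lower quartiles, replicates 1 and 2, also had the highest SCL3 signals among GA4 arrays, and the part of background in those signals was not tested. After quantile normalization, which gives all arrays the same distribution of signals, the fall in replicate 1 was larger, at −1.78, and the others were −2.08, −1.69 and −1.54 in replicates 2 to 4, for a mean of −1.77. With 16 units added to every signal before the log, which shrinks differences of dim probe sets, the mean was −1.60 (3.03-fold lower).

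Among the 13648 tested probe sets, SCL3 stood at rank 9 by mean fall, a description, since it was chosen for its fall. Above it were 261768_at at −3.26, 266912_at at −2.81, 248371_at at −2.62, AT4G24110 at −2.35 and 253894_at at −2.11 on the log2 scale. Next above it were 245628_at at −1.83, 266150_s_at at −1.82 and 245136_at at −1.77, and next below it were 252368_at at −1.69, 246195_at at −1.63 and GID1A at −1.61. None of the probe sets named here by identifier has a gene listed. The mean differences of 245136_at and 252368_at, with SDs of 1.04 and 1.80 over the 4 replicate numbers, differ from that of SCL3 by less than these spreads.

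Some of the larger falls belonged to dimmer probe sets. Of the 8 probe sets with a larger mean fall, only 261768_at and 245136_at had mean signals above the filter level in both groups, which leaves SCL3 in rank 3 among the 13275 probe sets that meet this. The rank was 8 to 12 when GA4 replicate 1 or 2 or water replicate 1, 3 or 4 was left out. Without GA4 replicate 3, GA4 replicate 4 or water replicate 2 it was 25, 21 and 20, and over all 22746 probe sets with no filter it was 52, since 43 dimmer ones had larger mean falls. It was 47 on replicates 1 and 2 alone and 7 on replicates 3 and 4 alone.

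The place of SCL3 differed more between replicate numbers than its fall did. By the difference within 1 replicate number, SCL3 ranked 153 from the lowest in replicate 1, 39 in replicate 2, 11 in replicate 3 and 11 in replicate 4. The differences of all tested probe sets were broader in replicates 1 and 2, with SDs of 0.54 and 0.47, than in replicates 3 and 4, with SDs of 0.33 and 0.29. Of the 152 probe sets that fell more than SCL3 in replicate 1, only 56 (36.8%) were lower in GA4 in 4 of 4 replicate numbers, and their median difference was −0.08 in replicate 3 and −0.15 in replicate 4. With 153, the worst of the SCL3 ranks, as the limit, 10 of 13648 probe sets (0.0733%) lay within it in every replicate number. SCL3 was 1 of them by that choice of limit. The others were GID1A, 246195_at, 261768_at, 245136_at and 5 whose mean GA4 signal was below the filter level.

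**Figure D3:**
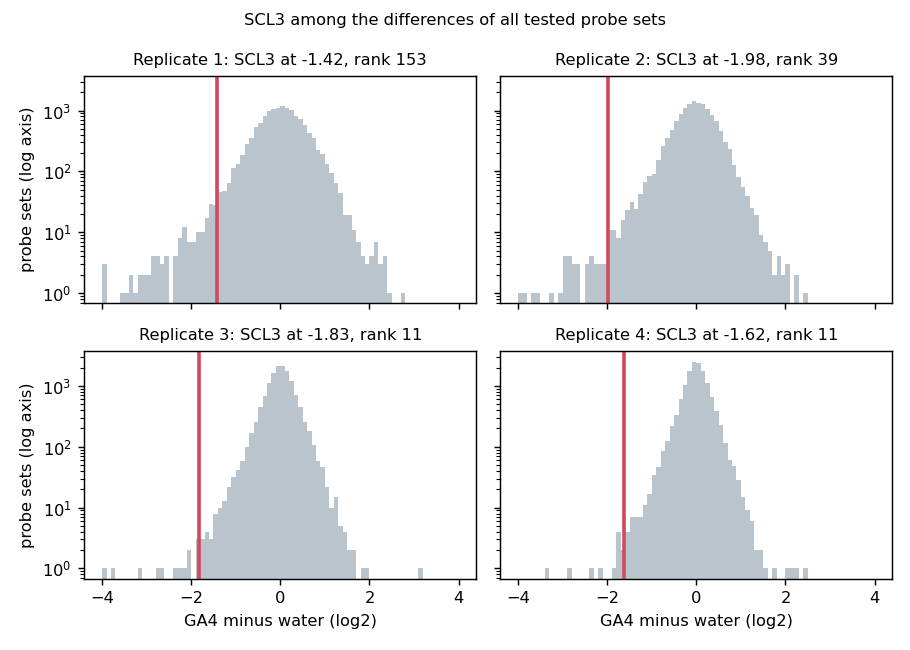
Number of tested probe sets (vertical, log axis) by GA4 minus water difference (log2, horizontal) in each replicate number, with a red line at SCL3 and differences beyond 4 in either direction drawn in the end bars. SCL3 lies in the lower tail of all 4 distributions, at −1.42, −1.98, −1.83 and −1.62, and the distributions of replicates 3 and 4 are narrower than those of replicates 1 and 2.

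Of the 13648 tested probe sets, 4 were more than 1.4 log2 units lower in GA4 in each replicate number, SCL3 among them. This cut lies just under the smallest fall of SCL3, −1.42, so its own place there was fixed by the cut. The other three were 261768_at, with a smallest fall of −2.90, and 248371_at and 266912_at, whose mean GA4 signals lay below the filter level. A fall of more than 1 log2 unit in 4 of 4 replicate numbers was seen in 10 of 13648 probe sets (0.0733%), among them XERICO and AT5G17760. The highest GA4 array and the lowest water array of SCL3 were 1.23 log2 units apart. That was the third largest such gap, after 261768_at at 2.22 and 248371_at at 1.66 and ahead of GID1A at 0.96, and 190 probe sets (1.39%) had all GA4 arrays below all water arrays, while 122 (0.894%) had all of them above.

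The 8 probe sets named here as closest to SCL3 over the 8 arrays were lower in GA4 in 4 of 4 replicate numbers (10.0% of all tested probe sets). Their choice by likeness to SCL3 largely fixed this direction, so it is not a separate result. Likeness was measured as Pearson's r of log2 signals across the 8 arrays, a description in which the 2 treatments and the 2 sets of replicates are shared by all probe sets. The highest of 13647 values was that of AT5G18840, a predicted sugar transporter, with r = 0.992. It differed by −0.97, −1.31, −1.05 and −0.79 in replicates 1 to 4, with its largest fall in replicate 2, like SCL3, and its smallest in replicate 4. Next came 261768_at at 0.978, 246195_at at 0.975, XERICO, which encodes a RING-H2 protein that raises abscisic acid levels, at 0.960, the receptor gene GID1A at 0.959 and AT3G22104 at 0.943. Among probe sets with 1 gene, AT1G17830 at 0.941 and AT1G80870 at 0.937 followed. In all, 24 of the 13647 had r above 0.9 and the median r was 0.01.

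**Figure D4:**
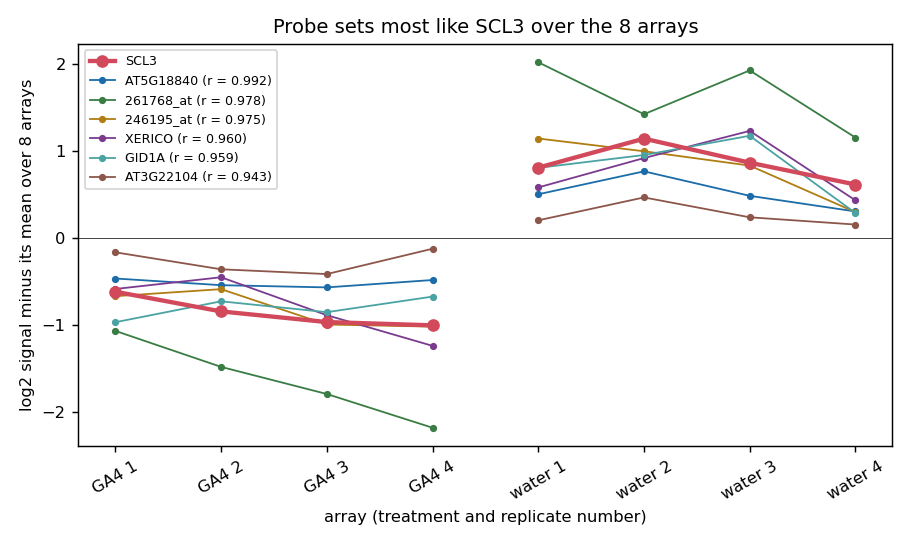
Log2 signal minus its mean over the 8 arrays (vertical axis) on each GA4 and water array for SCL3 (thick red) and the 6 probe sets with the highest Pearson's r to it, where lines only join the points of a probe set within a treatment. All 7 lie below their means on the GA4 arrays and above them on the water arrays, with AT5G18840 at r = 0.992 and AT3G22104 at r = 0.943.

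Within each treatment the likeness differed between these probe sets. After the mean of each treatment was subtracted, r to SCL3 was 0.825 for AT5G18840, 0.824 for AT1G17830, 0.692 for 246195_at, 0.638 for XERICO and 0.632 for AT3G22104. It was lower for 261768_at, at 0.525, for AT1G80870, at 0.436, and for GID1A, at 0.356. The highest values on this measure among probe sets with 1 gene belonged to AT3G55170 at 0.977, AT3G26470 at 0.969 and AT3G01790 at 0.969, whose mean GA4 minus water differences were only 0.12, 0.17 and −0.17. At the opposite end over 8 arrays stood AT5G23750 at −0.950, AT5G44910 at −0.929 and AT4G39240 at −0.903, which were only 0.23, 0.26 and 0.21 log2 units higher in GA4. With quantile normalization the first of these was at −0.193, the second at −0.282 and the third at −0.920.

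Genes related to SCL3 by family or pathway were tested in a limma fit of the log2 signals, GA4 against water. The lists were drawn up with earlier results of these data known. P-values were adjusted by the Benjamini-Hochberg method over all 13648 tested probe sets, and an adjusted p under 0.05 was taken as a call. Without a block 2 probe sets passed (0.0147%), both lower in GA4. With the replicate number as a block 40 passed (0.293%), of which 35 were lower (0.256%) and 5 higher (0.0366%). With a block on the set of replicates in its place 32 passed (0.234%), 31 lower (0.227%) and 1 higher (0.00733%). An unadjusted p under 0.05 was reached by 361 of the 13648 without a block (2.65%) and by 1611 with the replicate block (11.8%).

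No other GRAS gene with a named probe set passed. Of 33 GRAS genes listed, 14 had a named probe set, SCL3 not among them, and 8 of these were tested. By limma 0 of the 8 passed in either direction in either fit (0.0147% of all tested probe sets without the replicate block and 0.293% with it). At an unadjusted p under 0.05 there were 0 of 8 without the replicate block (2.65% of all tested probe sets) and 1 of 8 with it (11.8% of all). Their mean differences ran from −0.32 for AT3G50650 to 0.42 for AT5G66770, with a median of 0.16 (0.01 over all tested probe sets). Without GA4 replicate 2, AT3G50650 was at −0.031. None was lower in 4 of 4 replicate numbers, against 10.0% of all tested probe sets, and none was higher in 4 of 4, against 9.64%. Counts of 0 among 8 are close to these shares and to the shares called, so they do not set the family apart. LAS, which controls axillary meristem formation, was at 0.25 (SE 0.24 with the block) and SCL21 at 0.16 (SE 0.17). DELLA genes themselves and SCARECROW and SHORT-ROOT, the founding regulators of root radial pattern, had no named probe set here.

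AT5G41920 (SCL23, a close relative of SCARECROW) was below the filter and was not tested. It read 5.95, 5.17, 6.08 and 5.65 on GA4 replicates 1 to 4, against 6.48, 6.27, 6.80 and 6.40 on water replicates 1 to 4 (log2 signal), so that the groups did not overlap. It differed by −0.53, −1.10, −0.72 and −0.75 in replicates 1 to 4, a mean of −0.77. Its mean signal was under the filter level of 6.78 in both groups, and 1 of its 8 arrays, water replicate 3, read above it. Of the tested probe sets, 1.39% had all GA4 arrays below all water arrays. The share among probe sets below the filter was not counted.

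Of the 16 IDD genes, whose proteins carry GRAS regulators to DNA, 5 had a probe set named here, of which 3 were bright enough for the test. Neither limma fit called any of them (0.0147% of all tested probe sets were called without and 0.293% with the replicate block). A count of 0 among 3 is close to these shares. At an unadjusted p under 0.05 there was 1 of the 3 in each fit (2.65% of all without the block and 11.8% with it). That was AT3G45260, which differed by −0.85, −0.88, −0.48 and −0.64 in replicates 1 to 4 (mean −0.71, SE 0.16 and adjusted p = 0.122 with the replicate block, adjusted p = 1.00 without). AT1G14580 was at −0.17 and IDD16 at 0.23. JKD, a partner of SCARECROW in the root, lay below the filter at 6.47 ± 0.62 in GA4 and 6.49 ± 0.84 in water (log2 signal, SD, n = 4).

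Transcripts of GID1A and GID1B, the 2 gibberellin receptor genes that were tested, also fell in the fit with the replicate block. Both are also in the list of DELLA targets below, which were picked partly on these arrays. Their calls are therefore not independent evidence. All 7 genes of perception and DELLA turnover were on the array under their own names, and 6 passed the filter. Of these 6, 2 passed in the limma fit with the replicate block (0.293% of all tested probe sets) and 0 without it (0.0147%). An unadjusted p under 0.05 was reached by 3 with the block (11.8% of all) and by 3 without it (2.65%). GID1A averaged 6.98 ± 0.13 in GA4 and 8.59 ± 0.38 in water (log2 signal, SD, n = 4), with an adjusted p of 0.00929 with the block and 0.0856 without. GID1B averaged 6.97 ± 0.29 in GA4 and 8.41 ± 0.94 in water, with an adjusted p of 0.0419 with the block and 1.00 without. Without pair 1 or pair 2 the adjusted p of GID1A was 0.0638 and 0.103, and leaving out any of the 4 pairs put that of GID1B between 0.0674 and 0.135. With no filter on low values the adjusted p of GID1B was 0.111 with the block, so its call held under 2 of 7 alternatives. The third receptor gene, GID1C, lay below the filter and was not tested. It differed by 0.47, 0.33, −0.03 and −0.58 in replicates 1 to 4 (mean 0.05), and its groups overlapped. SLY1, an F-box gene, was at −0.65 and did not pass (adjusted p = 0.212 with the block). SLY2 was at −0.20, and SPY and SEC, which encode the sugar transferases that modify DELLA proteins, were at −0.05 and −0.27. Over the 6 the median difference was −0.46, and in 3 (GID1A, GID1B and SLY1) all GA4 arrays lay below all water arrays, against 1.39% of all tested probe sets.

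GID1A and GID1B had larger SDs over the replicate numbers than SCL3. GID1A differed by −1.77, −1.68, −2.02 and −0.96 in replicates 1 to 4 and GID1B by −0.80, −0.94, −2.25 and −1.77, with SDs of 0.46 and 0.69, against 0.24 for SCL3. The SD of SCL3 was not unusual, since 39.6% of all tested probe sets had a smaller one. That of 246195_at, with a mean difference of −1.63, was also 0.24. The differences in spread were not tested. All of these comparisons share the same 8 arrays.

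Other genes listed as direct targets of DELLA proteins were lower in GA4 in every replicate number where tested. These targets were picked partly on these arrays, so their direction is not independent evidence. Of 12 listed, GID1A and GID1B included, 7 were tested. All 7 were lower in 4 of 4 replicate numbers (10.0% of all tested probe sets), but IQD22 passed the filter only through its water signal. An unadjusted p under 0.05 was reached by 6 of the 7 with the replicate block (11.8% of all) and by 5 without it (2.65%). By limma 3 passed with the block, GID1A and GID1B among them (0.293% of all), and 0 without it (0.0147%). The third was XERICO, which averaged 8.85 ± 0.35 in GA4 and 10.43 ± 0.36 in water (adjusted p = 0.00236 with the block, 0.121 without). IQD22 was at −1.45 (adjusted p = 0.139 with the block). Its mean log2 signal was 6.23 in GA4, below the filter level, and 7.68 in water. The size of its fall is therefore uncertain, and the filter favoured a lower GA4 signal for it in the counts above. AT5G50915, a bHLH gene, was at −0.52 (−0.17 without GA4 replicate 2), AT2G31730, another bHLH gene, at −0.45 and UBC20, a ubiquitin-conjugating enzyme gene, at −0.11. Their adjusted p with the block was 0.175, 0.259 and 0.731. Of the 21 genes of gibberellin metabolism, 0 had a named probe set.

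**Figure D5:**
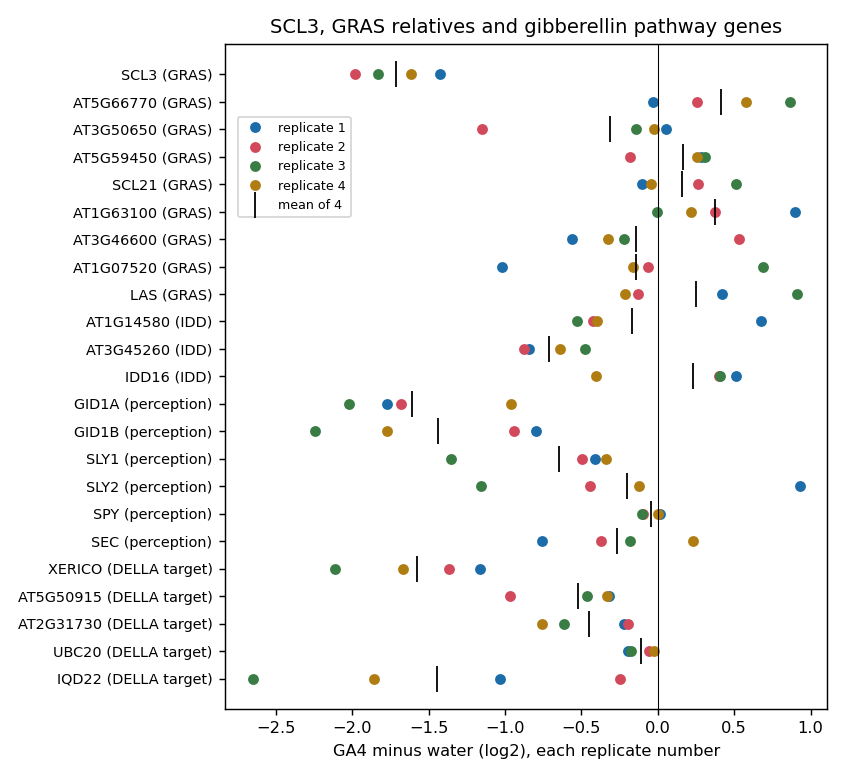
GA4 minus water difference (log2, horizontal axis) in each of the 4 replicate numbers (coloured points) and their mean (black tick) for SCL3 and the 22 tested genes of the GRAS, IDD, gibberellin perception and DELLA target lists. SCL3 lies at −1.98 to −1.42 while the other 8 GRAS genes average −0.32 to 0.42. GID1A, GID1B, XERICO and IQD22 lie below 0 in all 4 replicate numbers, as do AT3G45260, SLY1, AT5G50915, AT2G31730 and UBC20.

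SCL3 is best known from roots, and the samples were shoots. Of 6 root markers, 2 had a named probe set, EXPA7 and EXPA18, and both lay below the filter. EXPA7, a root hair expansin, averaged 6.59 ± 0.31 in GA4 and 6.27 ± 0.49 in water, and EXPA18, also of root hairs, 6.08 ± 1.05 in GA4 and 5.41 ± 1.25 in water (log2 signal, SD, n = 4). Neither was lower in GA4 on average. Markers of the root endodermis and the 6 shoot markers listed had no named probe set, so the labelled tissue was not checked further and the part of endodermal cells in the SCL3 signal was not tested.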

How the data were processed

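RNA of 8 arrays was read, 4 from GA4-sprayed and 4 from water-sprayed ga1-3 shoots. The authors deposited linear signal intensities, 1 for each probe set on each array, made with MAS5 per the submitters' processing notes, which give no version. Each deposited column had a 2%-trimmed mean of 500.04 to 500.05, so no rescaling was applied. Signals below 1 (707 of 182480) were set to 1 before log2. Of 22810 probe sets, 64 controls were left out, and the 60% of the other 22746 with the highest mean log2 signal, 13648, were tested, which set the filter level at 110 units. Detection calls played no part. The number of arrays limits the precision. Genes were named through the platform annotation and the TAIR10.1 gene table, which gave 13513 probe sets 1 gene. The annotation names no genome build, so no positions are given.

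The contrast of GA4 with water was fitted in limma 3.58.1 (R 4.3.3; lmFit, eBayes with trend, 2-sided), without a block and with the replicate number as a block. The labels do not say what a number marks. Deviations from the group means correlated at 0.616 to 0.685 between arrays of the same number, above the minimum of 0.1 in all 4 pairs, which is where the pairing comes from, but arrays of different numbers also correlated within each set, at 0.367 and 0.392 in replicates 1 and 2 and at 0.544 and 0.599 in replicates 3 and 4. The code was tested on simulated data. Members, lists and the rule for naming genes were chosen with earlier results of these data known. The SCL3 probe set is 261866_at. The rule took it, its 3 neighbours on each side by mean difference, the 6 most alike probe sets, the 6 most and 3 least alike with 1 gene, the 3 most alike with 1 gene after removal of group means, and each list member with a named probe set. Other probe sets named by rank or gap were chosen after their values were seen. Alternatives were quantile normalization, an added constant of 16, no filter, array weights, no trend, a block on the replicate set, each set alone and leaving out each array or pair.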

Additional observations from a re-analysis of the deposited data

Results flagged for a closer look

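Within groups of 4 arrays, the highest or lowest array was set against the others for SCL3 and for the 33 genes of the lists with a named probe set, which made 68 groups. No array of SCL3 stood apart in either treatment. In 4 groups 1 array lay far from the rest of its group. Chance gives about 1 group in 20, so 4 of 68 groups is close to what chance gives. AT5G66770, a GRAS gene, read 7.30 on water replicate 3 against 7.75 to 7.76 on the other water arrays, a gap of 0.979 of the whole range. AT3G49950, a GRAS gene below the filter, read 4.98 on water replicate 4 against 6.04 to 6.17 (0.890 of the range). AT1G14580, an IDD gene, read 7.40 on water replicate 1 against 8.12 to 8.22 (0.885 of the range). The root marker EXPA18 read 3.56 on water replicate 4 against 5.83 to 6.25 (0.845 of the range). All 4 were on water arrays.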

How the results depend on the processing

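SCL3 stayed lower in GA4 under every alternative run, between −1.60 (16 added before log2) and −1.79, and between −1.79 and −1.62 when 1 array was left out, and its rank by mean fall ran from 8 to 25 when 1 array was left out. The number of probe sets past the threshold was 2 without a block, 40 with the replicate block and 32 with a block on the replicate set. It was 1 with no filter, 8 with array weights, 1 on replicates 1 and 2 alone, 9 on replicates 3 and 4 alone and 1 without any 1 of the 8 arrays. In the fit with the replicate block the count of 40 was 20 with quantile normalization, 21 with no filter and 8 to 53 when 1 pair was left out, with 14 without pair 1 and 8 without pair 2. The signs of some list genes that did not pass turned. AT1G07520 was at 0.11 with array weights, 0.26 on replicates 3 and 4 alone, −0.32 to 0.034 when 1 array was left out (0.034 without GA4 replicate 1) and 0.15 with the replicate block and without pair 1. SLY2 was at 0.24 on replicates 1 and 2 alone, −0.46 to 0.18 when 1 array was left out (0.18 without GA4 replicate 3) and 0.12 with the replicate block and without pair 3. With 1 array left out SPY was at −0.12 to 0.011 (0.011 without GA4 replicate 3 and 0.0026 without water replicate 1) and SCL21 at −0.014 (without GA4 replicate 2) to 0.36. AT1G14580 was at 0.13 on replicates 1 and 2 alone, IDD16 at −0.089 with array weights and SEC at 0.024 on replicates 3 and 4 alone. The causes were not tested. The GA4 signals of SCL3 lay 0.11 to 0.49 log2 units above the filter level.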

Other observations

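Genes beside SCL3 on chromosome 1 were looked at after the values were seen. Of the 12 protein-coding genes on each side in the TAIR10.1 gene order, 24 in all, 11 were named on the array and 6 of those passed the filter. By limma 0 of the 6 passed without a block (0.0147% of all tested probe sets) and 0 with the replicate block (0.293%). An unadjusted p under 0.05 was reached by 0 in either fit (2.65% of all without and 11.8% with the block). None had groups without overlap, against 1.39% of all with GA4 lower and 0.894% with GA4 higher. Counts of 0 among 6 are close to these shares. Their mean differences (GA4 minus water, log2) ran from −0.11 for UBC20 to 0.21 for AT1G50510, with a median of 0.0033, while SCL3 was at −1.71. AT1G50440, 2 genes away, was at 0.06 and averaged 8.95 ± 0.11 in GA4 and 8.89 ± 0.35 in water (log2 signal, SD, n = 4). AT1G50450, 3 genes away, was at 0.07. The genes directly next to SCL3 had no named probe set.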
